A study of Mus musculus with 30 samples.

Results

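The transcripts described here encode the laminin chains, their integrin receptors, and the nidogens, perlecan and agrin, which connect laminin to the rest of the basement membrane. Members were chosen by a rule on gene names alone. It takes Lama, Lamb and Lamc followed by a digit, the Itga and Itgb genes, Nid1, Nid2, Hspg2 (perlecan) and Agrn (agrin). The rule itself uses no measured value, but it was chosen with earlier results of these data known. The rule found 42 of the 18847 genes in the table: 11 laminin chains, 18 integrin alpha chains, 9 integrin beta chains and 4 linkers. They were read in 30 RNA-seq libraries of 5 stromal populations sorted from the thymus of B6.SJL mice 3 days old, with 2 control and 4 Trap libraries of each population. Trap mice had been injected on day 1 with aflibercept (VEGF-Trap), a soluble decoy built from VEGF receptor domains that captures VEGF-A, and control mice with human Fc (hFc). All groups shared the strain, the age, the injection day, enzymatic digestion and magnetic removal of CD45-positive blood cells, and all sorted cells lacked CD3, CD4, CD8, CD45 and Ter119.

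Epithelial cells were taken as EpCAM-positive and split by Ly51 into cortical (cTEC, Ly51 high) and medullary (mTEC, Ly51 low or negative) cells, and endothelium was sorted on CD31. Cells with neither EpCAM nor CD31 gave CD146-positive mesenchyme, a gate that holds mural cells, and CD140a-positive mesenchyme, which is fibroblastic. The sex is labelled mixed, and whether a library held the cells of 1 or of several animals is not given in the sources used here, so p-values measure the spread between libraries, which may be partly technical. The marker genes of the sorted types were higher in their own population in limma's test for 10 of 10 fibroblast, 10 of 10 mural, 12 of 12 pan-endothelial, 8 of 8 cTEC and 8 of 8 mTEC genes, and for 9 of 10 thymic epithelial genes in either epithelial population. The lists include genes of the sort gates, such as Epcam, Pecam1, Pdgfra and Mcam, whose direction the gating set. Some marker sums were sizeable outside their own population. The mTEC list summed to 255 to 882 FPKM in cTEC against 1071 to 2831 FPKM in mTEC. The mural list summed to 509 to 761 FPKM in mTEC against 5087 to 6594 FPKM in CD146-positive mesenchyme. Some libraries stood apart: endothelium Trap 2 carried a summed thymic epithelial marker level of 101 FPKM against 3.46 to 15.95 FPKM in the other endothelial libraries, and CD146 control 1 and CD146 Trap 2 are described further on. Levels are FPKM (fragments scaled by transcript length and by the library's mapped fragments), so chains of different length can be set side by side. In sorted bulk samples, fewer cells of a type and less RNA per cell cannot be told apart.

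A laminin is a cross-shaped trimer of 1 alpha, 1 beta and 1 gamma chain that polymerizes into the sheet underlying epithelia and surrounding vessels and mesenchymal cells. The alpha chain carries the domains bound by cell-surface receptors, and the chain chosen differs between tissues. Nidogens and perlecan tie the laminin sheet to the collagen IV network, and agrin binds laminin and dystroglycan. Integrins are pairs of 1 alpha and 1 beta chain; α3, α6 and α7 chains bind laminins, α1, α2, α10 and α11 bind collagens, and α5, α8 and αv bind the RGD sequence of fibronectin and related proteins. The thymus depends on such contacts for the layout of its epithelium, for the vessel wall and for the passage of lymphocytes.

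Promoters of 27 of the 42 members were found in the RefSeq windows for GRCm38.p6, as 31 windows, and 13 of those windows held no base of a GENCODE exon. The 250 bases before the start are shown for Lama2 and Lama5, the alpha chains that differed in opposite directions between the mesenchymal populations, for Itga1 and Itga2, adjacent collagen-receptor genes with different patterns, and for Itgb5, which was mesenchymal. Capitals mark a CArG box (the core bound by serum response factor) in Lama2 and GC boxes (GGGCGG) in Lama5 and Itgb5.
Lama2 (chr10:27616943-27617192, minus strand): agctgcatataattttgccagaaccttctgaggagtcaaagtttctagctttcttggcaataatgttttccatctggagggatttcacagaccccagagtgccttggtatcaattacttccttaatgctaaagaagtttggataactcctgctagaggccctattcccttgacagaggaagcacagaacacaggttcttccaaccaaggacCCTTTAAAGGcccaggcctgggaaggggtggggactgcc
Lama5 (chr2:180225860-180226109, minus strand): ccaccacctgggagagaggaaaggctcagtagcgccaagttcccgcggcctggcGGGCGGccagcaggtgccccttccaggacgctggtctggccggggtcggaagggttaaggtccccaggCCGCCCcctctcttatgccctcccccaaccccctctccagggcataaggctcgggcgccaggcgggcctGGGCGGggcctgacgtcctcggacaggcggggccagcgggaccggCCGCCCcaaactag
Itga1 (chr13:115101965-115102214, minus strand): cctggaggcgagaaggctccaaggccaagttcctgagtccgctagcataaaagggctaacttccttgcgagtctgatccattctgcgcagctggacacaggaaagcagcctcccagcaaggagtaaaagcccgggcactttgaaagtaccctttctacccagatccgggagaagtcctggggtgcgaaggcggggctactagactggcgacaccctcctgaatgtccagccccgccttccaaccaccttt
Itga2 (chr13:114932101-114932350, minus strand): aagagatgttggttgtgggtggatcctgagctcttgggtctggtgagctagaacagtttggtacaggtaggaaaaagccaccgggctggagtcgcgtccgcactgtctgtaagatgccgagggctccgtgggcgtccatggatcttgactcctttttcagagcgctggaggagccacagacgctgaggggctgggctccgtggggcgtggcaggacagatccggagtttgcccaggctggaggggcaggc
Itgb5 (chr16:33829415-33829664, plus strand): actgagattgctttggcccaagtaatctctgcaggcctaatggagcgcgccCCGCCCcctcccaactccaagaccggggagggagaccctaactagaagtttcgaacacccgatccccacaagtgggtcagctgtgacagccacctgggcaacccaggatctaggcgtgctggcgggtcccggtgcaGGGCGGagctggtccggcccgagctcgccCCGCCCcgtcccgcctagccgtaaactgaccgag

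The Lama2 window lies in an intron of the longer GENCODE model of Lama2. Itga2 and Itga1 stand in the same orientation on chromosome 13, on the minus strand, 20995 bases apart, and neither window held any of the motifs searched. The motifs, on both strands and without shared bases, were the GC box, which 13 of the 31 member windows and 32.7% of all 32851 windows held, the AP-1 site TGANTCA (1 window, 6.75% of all), the TATA box TATAAA (0, 12.4%), CCAAT (5, 33.8%) and the CArG box (2, 1.47%). The windows shown for Lama5 and Itgb5 held 4 and 3 GC boxes and 19 and 18 CG dinucleotides, while the Lama2 window held 0 CG dinucleotides. The median was 10 CG in the member windows and 6 in all windows. A match is a description of these letters, and its absence says nothing of the factor.

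Most members were expressed, and few were shared evenly. Of the 42, 40 passed the filter of 1 FPKM in at least 2 libraries (Itgax and Itgb2l did not), and 34 had a mean of at least 5 FPKM in some population. Means of at least 5 FPKM in all 5 populations were found for 9 members. Of the 34, 9 had their highest mean in CD140a-positive mesenchyme, 11 in CD146-positive mesenchyme, 4 in cTEC, 7 in mTEC and 3 in endothelium. The 8 members below 5 FPKM everywhere were Lama1, Lamc3, Itga2b, Itgad, Itgae, Itgax, Itgb2 and Itgb2l.

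**Figure D1:**
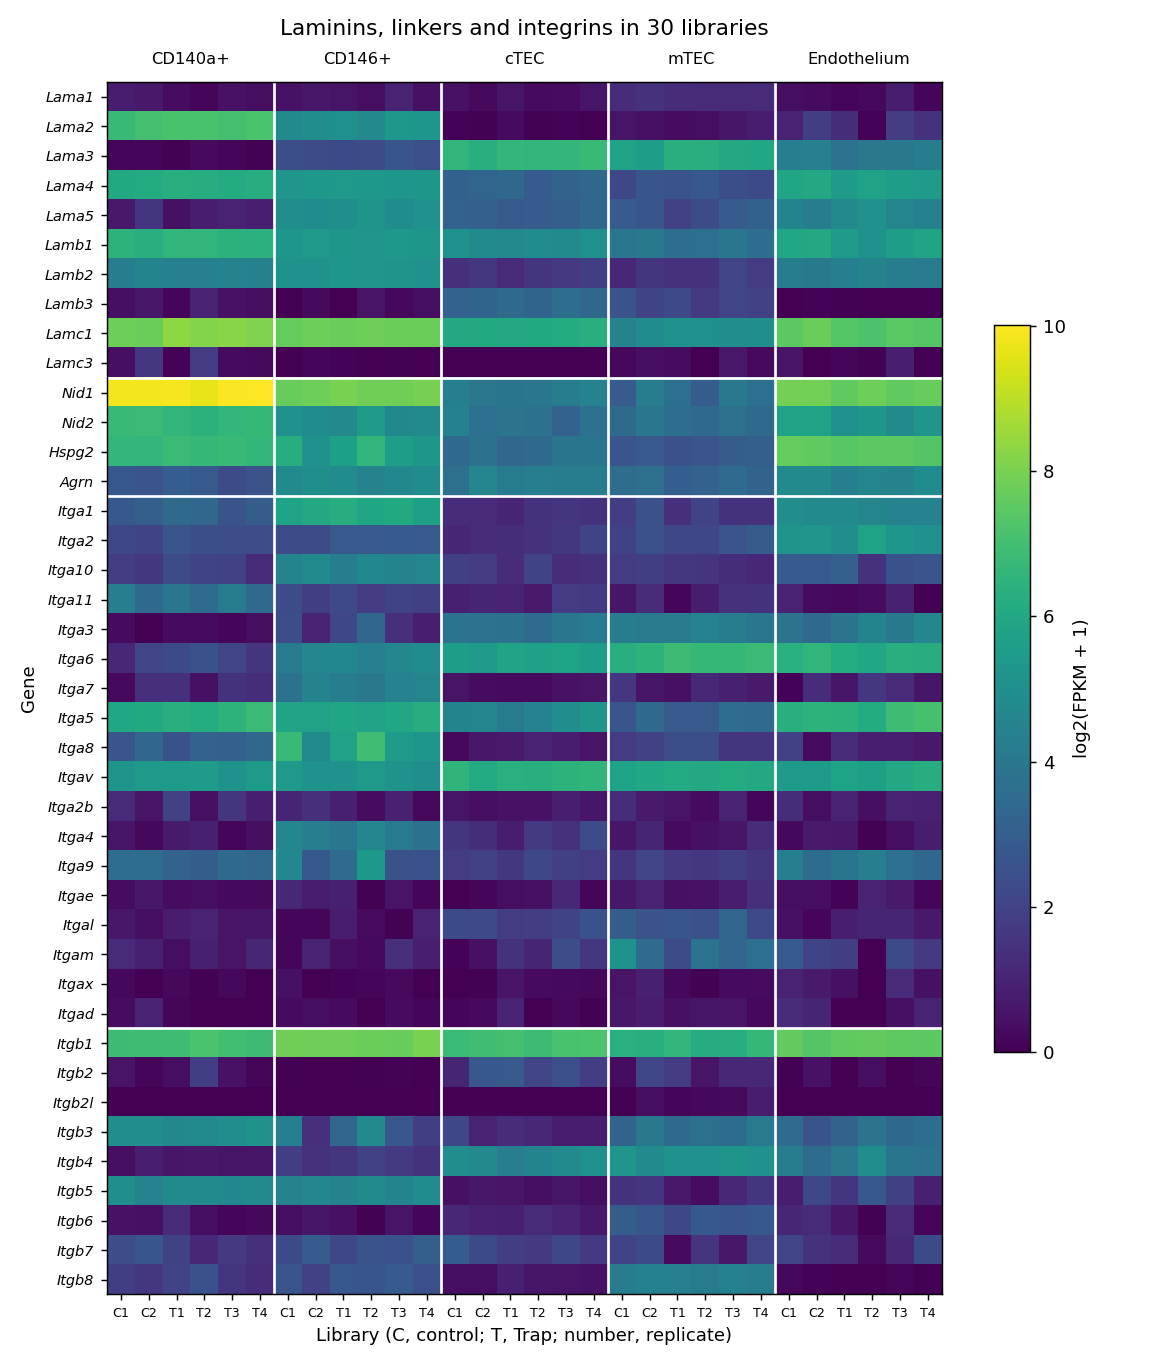
Levels of the members described here (rows, by family) in each of the 30 libraries (columns, by population, control before Trap), as log2(FPKM + 1) on the colour scale. Blocks follow the populations, with Lama3 and Lamb3 high in cTEC and mTEC, Lama2 and Nid1 high in mesenchyme, and little difference between control and Trap columns.

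On the log2(FPKM + 1) scale, limma contrasted a population's mean with the average of the remaining 4 over all 16425 genes, counting Benjamini-Hochberg adjusted p below 0.05; these comparisons share their libraries. In CD140a-positive mesenchyme 14 of 40 members were higher and 18 lower, where 17.1% of all genes were higher and 33% lower. CD146-positive mesenchyme had 19 higher and 11 lower members (18.2% and 25% of all genes), and endothelium 19 and 13 (17.7% and 34.5%). The share of higher members was above that of all genes in both mesenchymal populations, in endothelium and, narrowly, in cTEC. Member medians in CD146-positive mesenchyme and endothelium were 0.31 and 0.30 against -0.08 and -0.19 for all genes. In cTEC 10 were higher and 22 lower (21.2% and 24.5%), and in mTEC 12 were higher and 21 lower (38.4% and 17.5%), with member medians of -0.41 and -0.57 against -0.07 and 0.19. The CD140a-positive median was -0.15 against -0.19. The balance of all genes moved with the scaling: quantile normalization gave 3498 higher and 4144 lower genes in CD140a-positive mesenchyme, 3643 and 4368 in endothelium, and 4268 and 5753 in mTEC, and TPM gave 3858 and 3458 in CD146-positive mesenchyme.

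The mixture of laminin alpha chains differed between the non-epithelial populations, while in cTEC and mTEC it was much the same. Lama2, the alpha chain of the laminins around muscle, nerve and mesenchymal cells, reached 106, 136 and 144 FPKM in the lowest, median and highest CD140a-positive libraries and 25.2, 30.9 and 39.1 FPKM in CD146-positive libraries. It stayed at 0 to 0.24 FPKM (cTEC), 0.27 to 0.69 FPKM (mTEC) and 0.08 to 2.57 FPKM in endothelium. No CD140a-positive library overlapped any other population, and the log2 difference from the other 4 was 5.30 ± 0.17 (SE, adjusted p = 2.48e-19). Lama2 made up 64.1% ± 1.77 (SD, n = 6) of the summed alpha-chain FPKM there and 29.7% ± 3.95 (SD, n = 6) in CD146-positive mesenchyme.

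Lama4, the alpha chain of vessel and mesenchymal basement membranes, was, with Lama3, 1 of the 2 members whose 5 populations were all separated without overlap. Its levels were 67.8, 72.9 and 76 FPKM in CD140a-positive mesenchyme, 44.5, 50 and 65.1 FPKM in endothelium and 36.8, 39.1 and 41 FPKM in CD146-positive mesenchyme, with 8.2 and 4.64 FPKM on average in cTEC and mTEC. Among alpha chains it held the largest share in endothelium, 55.5% ± 3.99 (SD, n = 6). It was higher than the other 4 in CD140a-positive mesenchyme (log2 difference 1.99 ± 0.08) and in endothelium (1.51 ± 0.08).

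Lama5, the broadly used alpha chain of mature epithelial and vascular membranes, was highest in CD146-positive mesenchyme at 28.5, 30.4 and 35.6 FPKM and in endothelium at 17.8, 22.4 and 32.8 FPKM, ranges that overlapped. Mesenchyme sorted on CD140a held only 0.36 to 1.82 FPKM, so Lama2 and Lama5 had opposite orders in the mesenchymal populations. Their direct log2 differences, CD140a-positive minus CD146-positive, were 2.04 ± 0.21 (adjusted p = 1.47e-08) and -4.06 ± 0.19 (adjusted p = 1.52e-15). The epithelial populations read 6.08 to 9.34 FPKM (cTEC) and 2.95 to 7.63 FPKM (mTEC) for Lama5.

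Lama3, an alpha chain of epithelial adhesion, was the epithelial chain. It reached 78.7, 96.7 and 106 FPKM in cTEC and 47.4, 63.7 and 77.2 FPKM in mTEC and made up 85.6% and 83.8% of their alpha-chain FPKM. Endothelium followed with 12.9, 16.6 and 19.5 FPKM, above CD146-positive (3.7 to 5.37 FPKM) and CD140a-positive mesenchyme (0.03 to 0.18 FPKM). Endothelium Trap 2 read 14.5 FPKM, inside the range of the other endothelial libraries, and the endothelial log2 difference from the other 4 was 0.41 ± 0.08 with all libraries and 0.41 without it. Lama3 has a short and a long form, and which gene length the FPKM used is not given in the sources used here. Lama1, the alpha chain of the earliest embryonic membranes, was near the floor, at 1.26, 1.36 and 1.7 FPKM in mTEC and below 1 FPKM in every library elsewhere.

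Among the beta chains, Lamb3 set the epithelial populations apart from the rest. Lamb1, the common beta chain, was highest in CD140a-positive mesenchyme at 79.5, 87 and 95.7 FPKM and lowest in mTEC at 11.1, 12.9 and 15.5 FPKM, and held 52.4% to 81.1% of the beta-chain FPKM in the 5 populations. Lamb2, the beta chain of vascular smooth muscle, synaptic and glomerular laminins, was highest in CD146-positive mesenchyme at 32.8, 34.6 and 37.4 FPKM (log2 difference 2.25 ± 0.10, adjusted p = 1.31e-15), where it equalled 47.3% of the beta chains. Lamb3, an epithelial beta chain, was detected above 1 FPKM only in the epithelial populations, at 7.83, 8.72 and 11.4 FPKM in cTEC and 2.27, 3.22 and 4.94 FPKM in mTEC.

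Lamc1, the gamma chain of most laminins, was abundant everywhere, from 21.3 to 33.5 FPKM in mTEC to 220.1 to 315 FPKM in CD140a-positive mesenchyme, which overlapped CD146-positive mesenchyme (200.0 to 224 FPKM). Lamc3, a minor gamma chain, had its highest mean in CD140a-positive mesenchyme at 0.868 FPKM.

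**Figure D2:**
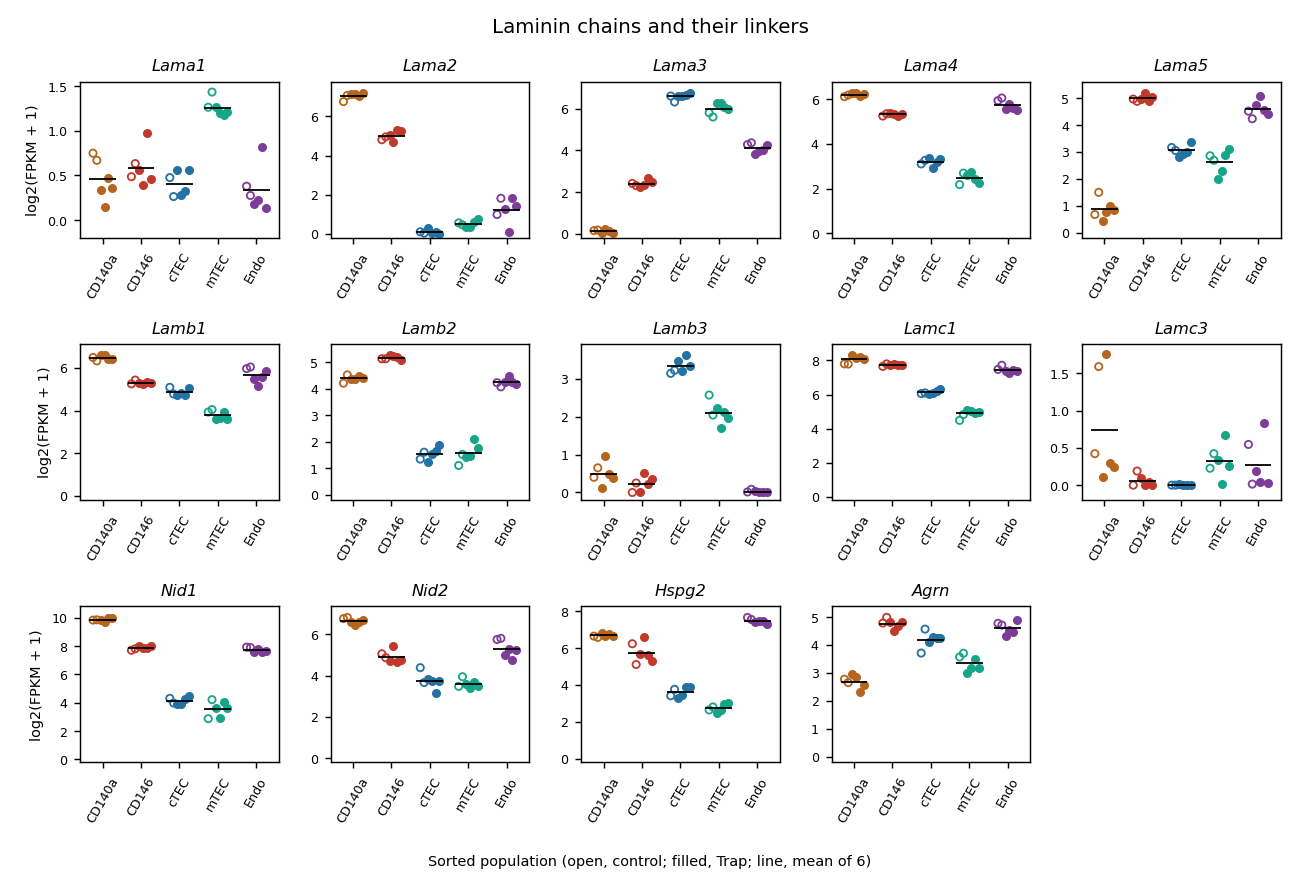
Levels of laminin chains and the 4 linkers as log2(FPKM + 1) (y axes, which differ between panels) in the 5 populations (x axes), with 1 point per library, open for control and filled for Trap, and a line at the mean of 6. Lama2 and Nid1 peak in CD140a-positive mesenchyme, Lama5 and Lamb2 in CD146-positive mesenchyme, Hspg2 in endothelium, and Lama3 and Lamb3 in cTEC.

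The nidogens and perlecan had their high levels in mesenchyme and endothelium, while agrin had another order. Nid1 was the most abundant member of all, at 819, 931 and 1037 FPKM in CD140a-positive mesenchyme (log2 difference 4.04 ± 0.14, adjusted p = 1.69e-18), 208, 229 and 255 FPKM in CD146-positive mesenchyme and 187, 213 and 242 FPKM in endothelium. The epithelial libraries held 14.1 to 21 FPKM (cTEC) and 6.34 to 17.6 FPKM (mTEC). Nid2, the second nidogen, had the same leader at 86.2, 99.3 and 112 FPKM and read 26.1, 37.6 and 55 FPKM in endothelium and 24.3, 27 and 42.8 FPKM in CD146-positive mesenchyme, ranges that overlapped.

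Perlecan, a heparan sulfate proteoglycan of vessel walls, led in endothelium. Hspg2 read 160.4, 178 and 202 FPKM there (log2 difference 2.82 ± 0.15, adjusted p = 8.02e-15), above CD140a-positive mesenchyme at 94.9, 100.5 and 113 FPKM and CD146-positive mesenchyme at 33.5, 49.4 and 94.9 FPKM, and at most 14.1 FPKM in epithelium. Agrn was highest in CD146-positive mesenchyme (21.4, 26.9 and 30.8 FPKM) and endothelium (19, 23.7 and 28.6 FPKM), which overlapped, and lowest in CD140a-positive mesenchyme (4.03 to 6.87 FPKM). The cTEC range for Agrn, 12.1 to 22.7 FPKM, overlapped endothelium, and both epithelial populations lay above CD140a-positive mesenchyme. Against the other 4 Agrn was higher in cTEC by 0.29 ± 0.11 (adjusted p = 0.0403 in limma), a call lost without cTEC control 2 (0.07, adjusted p = 0.675). The summed laminin level was 586 ± 55 FPKM (SD, n = 6) in CD140a-positive cells, 399 ± 12.9 FPKM in the CD146 gate, 341 ± 33.1 FPKM in endothelium, 334 ± 16.6 FPKM in cTEC and 177 ± 11.2 FPKM in mTEC. The nidogen sum spanned a wider range, from 905.5 to 1138 FPKM in CD140a-positive libraries down to 16.2 to 32.1 FPKM in mTEC.

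Among the laminin-binding integrin chains, α6 and α3 were highest in epithelium and endothelium, and α7 was mural. Itga6, which pairs with β1 or with β4, reached 77.2, 101 and 115 FPKM in mTEC and 61.2, 76.4 and 96.4 FPKM in endothelium, which overlapped, and 41.8, 50.5 and 56.8 FPKM in cTEC. CD146-positive mesenchyme came next, also at a mean of at least 5 FPKM, with Itga6 at 7.03% ± 1.96 (SD, n = 6) of its alpha-chain FPKM. CD140a-positive mesenchyme held 1.16 to 4.75 FPKM (log2 difference -3.92 ± 0.12). Itga3, the second epithelial laminin receptor chain, read 14.4, 17.1 and 20.9 FPKM in mTEC, 10.4, 13.2 and 15.8 FPKM in cTEC and 9.72, 14.6 and 23.6 FPKM in endothelium, with overlap among all 3. Itga7, the laminin receptor chain of muscle, was found only in CD146-positive mesenchyme at a mean of at least 5 FPKM, with 12.3, 19.5 and 22.4 FPKM (log2 difference 3.42 ± 0.21, adjusted p = 4.04e-13) and means of at most 1.16 FPKM elsewhere.

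Itgb4, the partner of α6 in the hemidesmosome, stood at 26.6, 33.9 and 36.3 FPKM in mTEC and 18.6, 26 and 32 FPKM in cTEC, without a difference past the threshold between them (cTEC minus mTEC, log2 difference -0.32 ± 0.19, adjusted p = 0.177). Endothelium read 10.7, 14.4 and 30.2 FPKM, and the highest of these libraries was Trap 2, the one with epithelial markers. The endothelial log2 difference from the other 4 was 0.99 ± 0.15 with it and 0.86 without it. Of 6 other hemidesmosome genes, 2 were higher and 2 lower in cTEC, 2 higher and 3 lower in mTEC, 3 higher and 1 lower in endothelium, 3 higher and 2 lower in CD146-positive mesenchyme and 0 higher and 5 lower in CD140a-positive mesenchyme. Lad1 (ladinin, an anchoring filament protein) was higher by 4.25 on the log2 scale in mTEC and by 1.94 in cTEC, and Cd151, a tetraspanin partner of laminin-binding integrins, by 1.33 in endothelium.

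Non-integrin laminin receptors (8 genes) leaned to CD146-positive mesenchyme, with 6 higher and 0 lower. They included Dmd (dystrophin, log2 difference 2.91), Sdc2 (a syndecan, 2.32), Bcam (the Lutheran receptor for laminin α5, 1.72) and Utrn (utrophin, 0.81). The other counts were 2 higher and 4 lower in CD140a-positive mesenchyme, 1 and 4 in cTEC, 2 and 4 in mTEC, and 3 and 5 in endothelium. Bcam was also higher in endothelium, by 1.47, where Lama5 was the second alpha chain.

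The collagen-binding chains divided among the non-epithelial populations. Itga1, the collagen IV receptor of smooth muscle and vessels, was highest in CD146-positive mesenchyme at 50.3, 62.5 and 75.7 FPKM (log2 difference 3.24 ± 0.13, adjusted p = 8.81e-17) and next in endothelium at 20.7, 24.8 and 30.2 FPKM, without overlap. Its neighbour Itga2 had the reverse leader, with 28.8, 35.8 and 53.5 FPKM in endothelium (3.08 ± 0.14, adjusted p = 2.31e-16) and means of 1.79 to 5.33 FPKM elsewhere. Itga10 read 17.9, 22.4 and 26 FPKM in CD146-positive mesenchyme and 1.71, 5.65 and 7.35 FPKM in endothelium. Itga11, the fibroblast receptor for fibrillar collagen, read 9.7, 12.3 and 18.3 FPKM in CD140a-positive mesenchyme and a mean of 3.07 FPKM in CD146-positive mesenchyme. The adjacent genes whose windows are printed above thus had different leading populations.

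Of the chains that bind RGD ligands, α5 and αv were found in every population. Itga5, the fibronectin receptor, reached 70.3, 86.3 and 136 FPKM in endothelium and 63.3, 75.8 and 112 FPKM in CD140a-positive mesenchyme, which overlapped, 53.2, 57.7 and 74.5 FPKM in CD146-positive mesenchyme, and 5.4 to 10.9 FPKM in mTEC. It was the largest alpha chain of CD140a-positive mesenchyme, 46.2% ± 5.42 (SD, n = 6) of the alpha sum. Itgav, which pairs with several beta chains, was highest in cTEC at 68, 84.5 and 93.9 FPKM and mTEC at 54.8, 65.2 and 70.9 FPKM, and no population read under 31.1 FPKM.

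The partners of αv sorted by population. Itgb3 was highest in CD140a-positive mesenchyme at 23.7, 29.2 and 33.1 FPKM (log2 difference 2.10 ± 0.33). Itgb5 was shared by both mesenchymal gates, 20.7, 25.7 and 30.9 FPKM and 21.1, 22.8 and 27.8 FPKM in CD140a-positive and CD146-positive libraries, with means of 0.408 to 2.59 FPKM elsewhere. Itgb8, whose αv pair binds latent TGF-β, was medullary, with 17.2, 18.9 and 20.4 FPKM in mTEC (log2 difference 3.10 ± 0.15, adjusted p = 4.66e-16) and means of 5 FPKM in the CD146 gate and 0.47 FPKM in cTEC. Itgb6, the epithelial partner of αv, had a mean above 1 FPKM only in mTEC, at 3.55, 5.61 and 6.81 FPKM.

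Itga8, whose ligands include nephronectin, was highest in CD146-positive mesenchyme but varied widely there, with 26.7, 49.5 and 123 FPKM against 4.58, 7.61 and 9.16 FPKM in CD140a-positive mesenchyme (log2 difference from the other 4 4.19 ± 0.26, and 3.53 without CD146 control 1 and CD146 Trap 2). Itga4, which binds VCAM-1 and fibronectin, was higher in the same population at 12.2, 17.8 and 24.1 FPKM (3.50 ± 0.20, adjusted p = 5.91e-14), with means of at most 2.01 FPKM elsewhere. Itga9, which binds tenascin-C and other matrix ligands, read 9.56, 12.8 and 19 FPKM in endothelium, 6.7, 9.31 and 10.9 FPKM in CD140a-positive mesenchyme and 4.6, 8.13 and 39.9 FPKM in CD146-positive mesenchyme. Itgb1, the common partner of most of these chains, was the leading beta chain everywhere, from 206, 222 and 255 FPKM in CD146-positive mesenchyme to 71.9, 79.6 and 101 FPKM in mTEC, where its share of the beta sum was the lowest, 52.8% ± 3.36 (SD, n = 6).

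**Figure D3:**
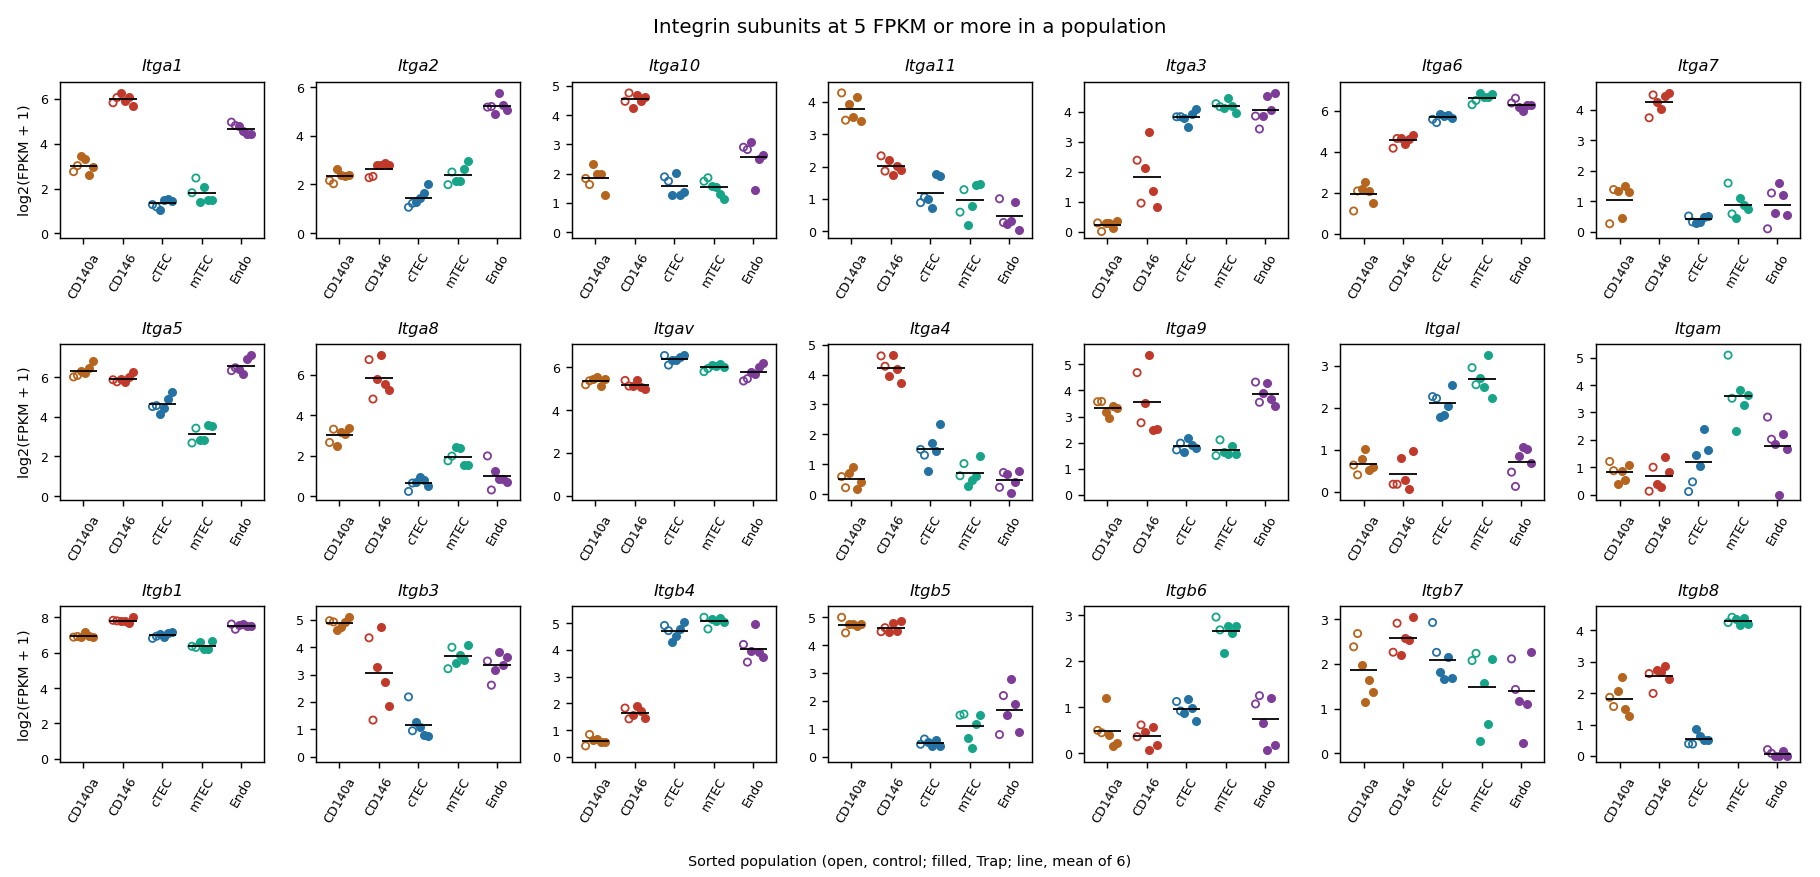
Levels, as log2(FPKM + 1) on y axes that differ between panels, of the 21 integrin chains with a mean of at least 5 FPKM in some population; points are libraries (open for control, filled for Trap) and lines the mean of 6. Itga1, Itga4, Itga7, Itga8 and Itga10 peak in CD146-positive mesenchyme, Itga2 in endothelium, Itga11 and Itgb3 in CD140a-positive mesenchyme, and Itgb6 and Itgb8 in mTEC.

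Leukocyte integrins were mostly low. Itgb2, the beta chain of the αL, αM, αX and αD pairs, was higher in cTEC by 1.59 ± 0.25 on the log2 scale at 1.07, 3.85 and 5.94 FPKM, and Itgal, its partner on lymphocytes, was higher in cTEC (1.08 ± 0.16, 2.45 to 4.77 FPKM) and mTEC (1.78 ± 0.16, 3.69 to 8.54 FPKM). In cTEC 12 of 13 T lineage markers tested were higher, and the sum of that list was 119 to 237 FPKM against 12.2 to 52.6 FPKM in the other populations, with Cd3e at 4.61 to 12.3 FPKM and Ptprc at 3.07 to 7.82 FPKM. The mTEC libraries had 2 of the 13 higher and 3 lower. Itgb7, the partner of α4 and αE, was highest in CD146-positive mesenchyme at 3.56, 4.91 and 7.26 FPKM. Itgal was thus higher in both epithelial populations, whereas most T lineage markers were higher in cTEC but not in mTEC. In CD146-positive mesenchyme 0 of the 13 T lineage markers were higher and 11 lower, and 2 of 9 myeloid markers were higher and 2 lower. The part of blood cells in the values was not tested.

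Itgam, the myeloid partner of β2, was higher in mTEC (log2 difference 2.69 ± 0.29, adjusted p = 1.12e-08), where libraries ranged over 4.01, 11 and 33.1 FPKM with control 1 the highest. Beside it, 8 of 9 myeloid markers tested were higher in mTEC and the list's sum was 32.2 to 58.7 FPKM there against 16.2 to 50.9 FPKM elsewhere. Within that list, C1qa was at 0 to 0.16 FPKM, Adgre1 at 0.04 to 3.55 FPKM and Csf1r at 1.25 to 3.37 FPKM. The log2 difference, cTEC minus mTEC, was -3.61 for Fcer1g, -2.42 for C1qb and -1.07 for Tyrobp, and 1.18 for Mpeg1, the other way. The part of such cells was not tested. The platelet and megakaryocyte list, relevant to Itga2b and Itgb3, had 2 of 7 genes higher in mTEC and 1 each in endothelium and CD146-positive mesenchyme, and its sum stayed at or below 29.3 FPKM in every library. Itga2b, the platelet integrin chain, had means of 0.487 to 1.27 FPKM, Itgad 0.183 to 0.647 FPKM and Itgae 0.288 to 0.78 FPKM. Itgax reached at most 1.27 FPKM and Itgb2l at most 0.73 FPKM in any library.

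Between the epithelial compartments, 14 of 40 members were higher in cTEC and 11 in mTEC, against 12.9% (cTEC) and 28.3% (mTEC) of all genes; quantile normalization gave 19 and 7 members and 4003 and 3080 of all genes. cTEC had higher levels of several laminin chains, with log2 differences (cTEC minus mTEC) of 1.28 ± 0.08 for Lamc1, 1.14 ± 0.16 for Lamb3, 1.04 ± 0.11 for Lamb1 and 0.63 ± 0.11 for Lama3 (adjusted p = 2e-05). Itga5 was higher in cTEC too, by 1.50 ± 0.20. The members higher in mTEC were mostly receptors, led by Itgb8 (-3.81 ± 0.18, adjusted p = 3.3e-15), Itgam (-2.83 ± 0.37), Itgb3 (-2.37 ± 0.42), Itgb6 (-1.73 ± 0.21) and Itga6 (-0.95 ± 0.16). Member and all-gene medians were 0.04 and -0.17. The calls of Itga1, Itga4, Itgal, Itgav, Itgb2, Itgb5 and Nid1 between cTEC and mTEC were each lost when some single library was left out.

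Between the mesenchymal populations, the CD140a-positive cells had 10 higher members and the CD146-positive cells 15, against 13.5% and 17.7% of all genes. The CD140a-positive side held Lama2 and Nid1 (2.03 ± 0.18), Itgb3 (1.90 ± 0.42), Itga11 (1.77 ± 0.26) and Nid2 (1.76 ± 0.15). On the CD146-positive side were Lama5, Agrn (-2.10 ± 0.14) and a row of alpha chains, Itga4 (-3.82 ± 0.25), Itga7 (-3.23 ± 0.27), Itga1 (-2.98 ± 0.17), Itga8 (-2.83 ± 0.33), Itga10 (-2.75 ± 0.23) and Itga6 (-2.68 ± 0.16).

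The CD146-positive libraries were not alike. Itga8 read 106 and 26.7 FPKM in the control libraries and 53.2, 123, 45.8 and 37 FPKM in the Trap libraries. Itga9 read 24.7 and 5.79 FPKM in the control libraries and 10.5, 39.9, 4.6 and 4.75 FPKM in the Trap libraries, and Itgb3 19.3 and 1.53 FPKM in the control libraries and 8.62, 25.7, 5.62 and 2.61 FPKM in the Trap libraries. Control 1 and Trap 2 were thus the highest in all 3, and also in Itga3 and Hspg2, the latter at 74.5 and 33.5 FPKM in the control libraries and 50.4, 94.9, 48.5 and 38.6 FPKM in the Trap libraries. The opposite order appeared in Itga7, with 12.3 and 21.4 FPKM in the control libraries and 18.2, 15.3, 20.8 and 22.4 FPKM in the Trap libraries, while Itgb1 stayed between 206 and 255 FPKM. The fibroblast marker Col1a1 was also highest in these libraries, at 134 and 30.5 FPKM in the control libraries and 71, 166, 53.2 and 48 FPKM in the Trap libraries, and the mural marker Rgs5 lowest, at 3259.8 and 4262 FPKM in the control libraries and 4382, 2783, 4115 and 3884 FPKM in the Trap libraries.

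Since the pair held 1 control and 1 Trap library, the pattern did not follow the treatment. Without both, Itga9 in CD146-positive mesenchyme against the other 4 went from 0.88 to 0.09 (adjusted p = 0.770 in limma) and Hspg2 from 0.60 to 0.18 (adjusted p = 0.258), so neither remained called (leaving out control 1 alone, they were 0.40 and 0.31, adjusted p = 0.361 and 0.131), and the member counts became 17 higher and 12 lower. In the direct comparison of the mesenchymal populations, Itgb8, Lamc1 and Lamc3 lost their calls and the counts became 8 and 14. The part of fibroblasts in these libraries was not tested.

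**Figure D4:**
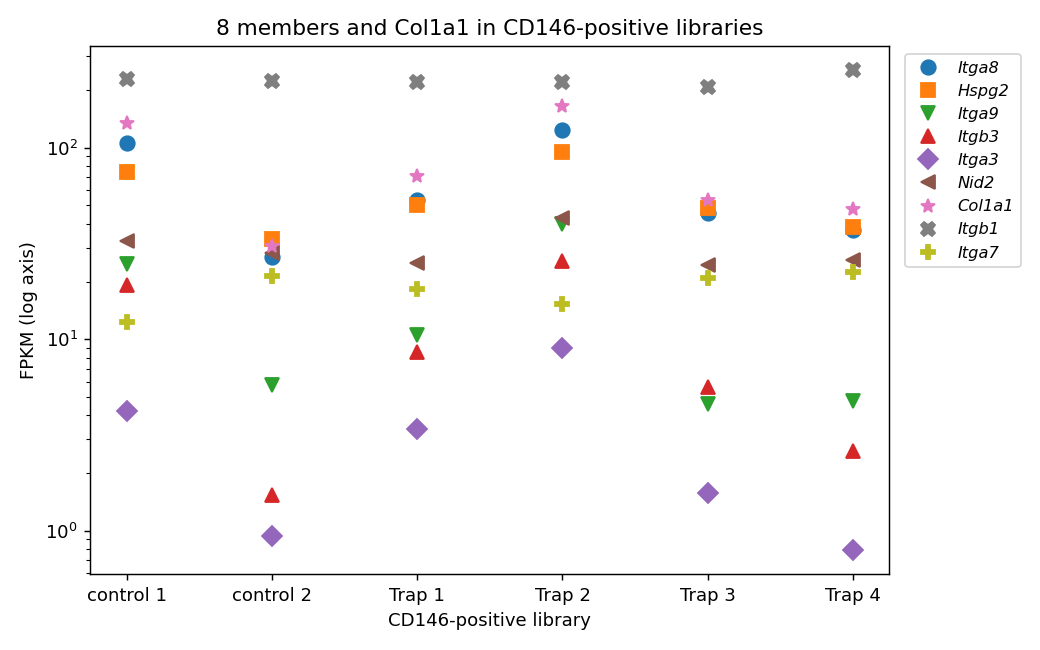
FPKM (log axis) of 8 members and the fibroblast marker Col1a1 in the 6 CD146-positive libraries, with 1 point per library. Control 1 and Trap 2 are the highest in Itga8, Itga9, Itgb3, Itga3, Hspg2 and Col1a1 and the lowest in Itga7, whereas Itgb1 is nearly level.

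The other genes of the basement membrane and of integrin signalling gave a wider frame. Of 20 other basement membrane genes tested, 10 were higher and 4 lower in CD146-positive mesenchyme, 9 and 8 in endothelium, 8 and 3 in CD140a-positive mesenchyme, 5 and 9 in cTEC and 3 and 12 in mTEC. Col4a1, a collagen IV chain, was higher by 2.14 on the log2 scale in endothelium and by 1.57 in CD146-positive mesenchyme, and its difference in mTEC was -2.09. Col15a1 had log2 differences of 3.90 in CD140a-positive mesenchyme and 3.67 in endothelium. Frem2, of the Fraser complex of epithelial basement membranes, was higher in cTEC by 3.79.

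Integrin adaptors and focal adhesion proteins (20 genes tested) had 12 higher and 2 lower in endothelium, 11 and 7 in CD146-positive mesenchyme, 6 and 11 in CD140a-positive mesenchyme, 6 and 6 in cTEC and 2 and 12 in mTEC. Fermt1, the epithelial kindlin, was higher by 4.95 in mTEC and 2.82 in cTEC. Fermt2, the broadly expressed kindlin, differed by 1.12 in CD146-positive mesenchyme, 0.86 in endothelium, -0.42 in CD140a-positive mesenchyme and -1.68 in mTEC, and by 0.12 in cTEC (adjusted p = 0.153). Parvb (β-parvin, 3.43) and Lims2 (2.80) led in endothelium. Other integrin ligands (19 tested) had 7 higher and 9 lower in CD140a-positive mesenchyme, 8 and 7 in CD146-positive mesenchyme, 8 and 8 in cTEC, 7 and 12 in mTEC and 7 and 8 in endothelium. Their leaders were Postn (periostin, 5.83 in CD140a-positive mesenchyme), Vtn (vitronectin, 4.49 in CD146-positive mesenchyme) and Icam2 (3.15 in endothelium).

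Trap and control libraries were contrasted within each population, averaged over the 5, and as the difference between endothelium and the mean of the other 4, since endothelial cells carry the main VEGF receptors. None of the 40 members tested passed limma's adjusted threshold in any of these 7 comparisons. At an unadjusted p below 0.05 there were 9 members in endothelium, 5 in mTEC, 4 in CD140a-positive mesenchyme, 1 in CD146-positive mesenchyme, 1 in cTEC, 7 in the average and 6 in the endothelial difference, where 14.9%, 7.49%, 3.71%, 5%, 2.28%, 11.9% and 11% of all genes met it. All genes called were 1.74% in endothelium (0.323% higher and 1.42% lower), 0.347% in mTEC, 0% in CD140a-positive mesenchyme, 0.0183% in CD146-positive mesenchyme, 0.00609% in cTEC, 0.426% in the average and 0.28% in the endothelial difference. With 2 control libraries per population, a member can miss the threshold without being equal in both treatments.

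The endothelial values leaned downward for matrix members without passing the test. Itgav read 40.2 and 43.3 FPKM in the control libraries and 54.9, 50.6, 64.6 and 73.8 FPKM in the Trap libraries, every Trap library above both controls (log2 difference 0.52 ± 0.15, adjusted p = 0.0833 in limma). Lamb1 read 61.5 and 65 FPKM in the control libraries and 44, 34.8, 46.6 and 57.5 FPKM in the Trap libraries, every Trap library below (-0.48 ± 0.15, adjusted p = 0.0992). Nid2 read 53 and 55 FPKM in the control libraries and 31.2, 38.7, 26.1 and 36.6 FPKM in the Trap libraries, again without overlap (-0.70 ± 0.22, adjusted p = 0.102).

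Of the 21 members with a mean of at least 5 FPKM in endothelium, 9 had all Trap libraries below both controls, where 10.5% of all such genes did, and 1, Itgav, had all above (7.99%). The 9 were Hspg2, Itga1, Itga6, Lama3, Lama4, Lamb1, Lamc1, Nid1 and Nid2. They are perlecan, both nidogens, laminin chains (among them Lama3, the epithelial chain) and receptor chains for laminin and collagen. Neither count was firm under other scalings: with upper-quartile scaling the 9 became 5 and the 1 became 2. TPM and quantile normalization each gave 3 above. Without control 1 there were 7 above, but leaving out a library loosens the rule, so such a count can only stay or rise. Lama4, the leading endothelial alpha chain, read 60 and 65.1 FPKM in the control libraries and 45.9, 53.1, 46.9 and 44.5 FPKM in the Trap libraries (-0.39 ± 0.15, adjusted p = 0.192), and Nid1 242 and 239 FPKM in the control libraries and 191, 220.3, 187 and 205 FPKM in the Trap libraries (-0.26 ± 0.25, adjusted p = 0.733). Medians of the log2 difference were -0.19 over the laminins, -0.22 over the linkers, -0.02 over integrin alpha chains and -0.01 over beta chains, against -0.02 over all genes. Calls depended on single libraries: Itgav passed without Trap 2 (0.60, adjusted p = 0.0459 in limma), and Lamb1 (-0.60, adjusted p = 0.0304) and Itgad (-1.01, adjusted p = 0.0295) without Trap 4. Itgad lay near the floor, with a mean of at most 0.647 FPKM in any population.

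**Figure D5:**
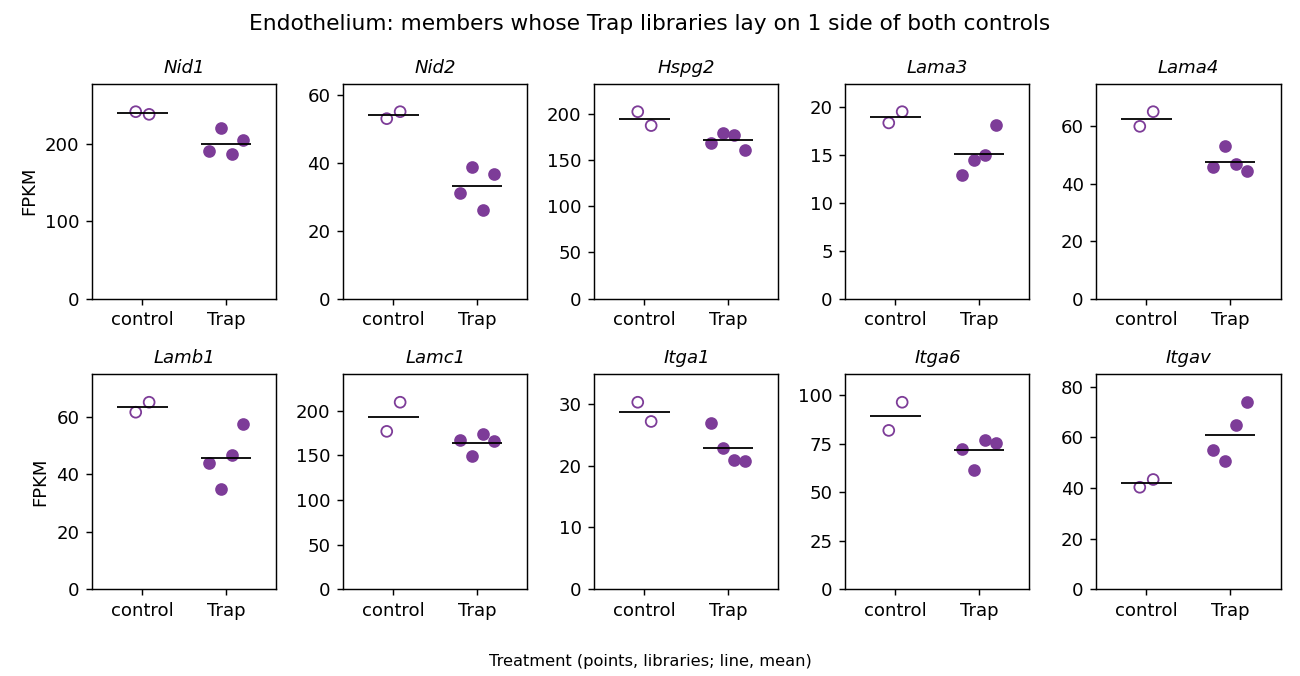
FPKM of 10 members in the 6 endothelial libraries, by treatment, on y axes from 0 that differ between panels, with 1 point per library (open for control, filled for Trap) and a line at each treatment's mean. In Itgav the 4 Trap libraries lie above both controls, and in the other 9 members they lie below them.

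Other genes differed between the same libraries. All Trap libraries were below both controls in 7 of 12 pan-endothelial markers, whose sum was 1931 to 1953 FPKM in control and 1698 to 1815 FPKM in Trap libraries, while Pecam1 was above. Col4a1 read 429.7 and 490.2 FPKM in the control libraries and 384, 336, 382 and 369.6 FPKM in the Trap libraries. The mural marker sum was 234 to 236 against 187 to 224 FPKM and the fibroblast sum 10.1 to 22.9 against 19 to 36.2 FPKM. The hemidesmosome sum was 90.1 to 107 against 130.3 to 139 FPKM. Of the 3 genes of that list at 5 FPKM or more, 2 (Dst and Plec) had all Trap libraries above both controls and 0 below. Over all such genes 7.99% were above. Plec (plectin, 0.62 ± 0.16, adjusted p = 0.0357) and the adaptor Vcl (vinculin, 0.55 ± 0.13, adjusted p = 0.0296) rose in limma's test. Fbn1, a fibrillin that binds RGD integrins, rose (0.70 ± 0.17, adjusted p = 0.0287), and Madcam1, the ligand of α4β7, fell (-1.10 ± 0.26, adjusted p = 0.0296). The calls of Plec, Vcl, Fbn1 and Madcam1 rest on a spread shared by all populations. The endothelial libraries alone gave 0 calls over all genes, and variance weights gave 13 rather than 286. The part of the cell mixture in the member values was not tested.

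In mTEC, Lamc1 read 21.3 and 27.4 FPKM in the control libraries and 33.5, 32.1, 29.5 and 30.8 FPKM in the Trap libraries (log2 difference 0.37 ± 0.11, adjusted p = 0.196 in limma), and Lama3 54.8 and 47.4 FPKM in the control libraries and 76, 77.2, 65.9 and 61.4 FPKM in the Trap libraries (0.45 ± 0.15, adjusted p = 0.332). Every Trap library was above both controls in these and in Itga6 and Itgav, 4 of 20 members at 5 FPKM against 6.57% of such genes, and below in Agrn and Lamb1 (2 of 20, 8.2%). The count below was 0 under upper-quartile scaling and 1 with TPM. Under the looser rule with 1 control left, 6 were below without control 1 and 7 above without control 2. Itga1, the other member of smallest p there, had 2.52 and 4.55 FPKM in the control libraries and 1.65, 3.17, 1.8 and 1.78 FPKM in the Trap libraries (-0.54 ± 0.24, adjusted p = 0.585). Lamc1 passed when mTEC control 2 was left out (0.54, adjusted p = 0.0412).

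In CD140a-positive mesenchyme, Lamc1 read 222 and 220.1 FPKM in the control libraries and 315, 284, 299 and 273 FPKM in the Trap libraries without overlap (0.40 ± 0.11, adjusted p = 0.891 in limma). It and Itga5 were above, and Nid2 and Itga9 below both controls, 2 of 18 members each way against 6.61% and 6.91% of genes. Upper-quartile scaling gave 6 above. Under the looser rule with 1 control left, 5 were above without control 1 and 4 below without control 2. The next members by p were Itgad (0.27 and 0.97 FPKM in the control libraries and 0.12, 0, 0 and 0 FPKM in the Trap libraries; -0.62 ± 0.26) and Itgb7 (4.21 and 5.4 FPKM in the control libraries and 2.93, 1.21, 2.13 and 1.59 FPKM in the Trap libraries; -0.995 ± 0.44), with adjusted p = 1 and 1.

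In CD146-positive mesenchyme, Itga2 read 3.86 and 4.04 FPKM in the control libraries and 5.94, 5.89, 6.37 and 5.88 FPKM in the Trap libraries (0.50 ± 0.24, adjusted p = 0.992 in limma), and Nid1 was the other of 24 members with all Trap libraries above (6.73% of genes). No member had all below, where 7.66% of genes did. Without control 1, which loosens the rule, there were 7 above and 3 below. Itgae (-0.53 ± 0.29) and Itga2b (-0.63 ± 0.34) followed by p, at levels of 0.03 to 1.14 FPKM and 0.16 to 1.61 FPKM. In cTEC the smallest p was Itgam's, with 0.08 and 0.38 FPKM in the control libraries and 1.74, 1.04, 4.22 and 2.06 FPKM in the Trap libraries (1.33 ± 0.52, adjusted p = 1), followed by Itga2 (0.45 ± 0.24) and Nid2 (-0.40 ± 0.22). Itga6 was among the members above both controls in all cTEC Trap libraries, 2 of 17 against 6.36% of genes, and 0 were below against 9.03%. Upper-quartile scaling gave 6 above, and the looser rule without cTEC control 2 gave 5 above and 2 below.

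Averaged over the populations, the members of smallest p were Itgb7 (-0.67 ± 0.20, adjusted p = 0.135 in limma), Nid2 (-0.31 ± 0.10, adjusted p = 0.164) and Itgad (-0.34 ± 0.11, adjusted p = 0.19). In the test of endothelium against the other 4, they were Lamc1 (-0.46 ± 0.12, adjusted p = 0.0961), Lama3 (-0.48 ± 0.17, adjusted p = 0.242) and Lama4 (-0.44 ± 0.17, adjusted p = 0.281). Each of the latter had lower Trap values in endothelium, and the difference from the other populations did not pass the threshold.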

How the data were processed

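Thymic stromal RNA was amplified (NuGEN Ovation) and sequenced paired-end on a HiSeq, per the labels' protocols. The deposited table holds the authors' FPKM values per gene. The submitters' processing notes name bcl2fastq 2.17, STAR, DESeq2 and the build GRCm38 (mm10); the sources used here do not state the annotation, gene lengths, strand setting or depth per library, so no counting error can be given. FPKM summed to 184608 to 241993 per library, and 10298 to 13661 genes reached 1 FPKM.

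Groups came from the labels. Values were taken as log2(FPKM + 1). Genes with at least 1 FPKM in at least 2 of the 30 libraries (16425) were fitted with limma 3.58.1 (R 4.3.3, empirical Bayes with trend) as 10 group means, which share 1 estimate of the spread, and 14 contrasts were tested two-sided with Benjamini-Hochberg adjustment over all genes at 0.05. The procedure was tested on simulated data in which each gene had 1 spread in all groups. That simulation does not cover populations that differ in spread. A difference on this scale understates changes of low genes.

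The members and the gene lists were chosen with earlier results of these data known. All members enter the counts, and 1 is not reported here by name; library values are given for those with the largest population differences at 5 FPKM or more and, where fewer than 3 members passed a Trap contrast, for the 3 of smallest p; from each list up to 4 genes of smallest p are named. Alternatives were another pseudocount (0.1), no filter, TPM, upper-quartile and quantile scaling, variance weights, a replicate block, a population's own libraries and leaving out each library. Leaving out the pair of CD146-positive libraries, and the counts of non-overlapping members under other scalings, were chosen after seeing the data. Counts of genes whose treatment groups do not overlap carry no test. Promoter windows are RefSeq's (GRCm38.p6) and gene positions GENCODE M21's. No protein sequence was used here.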

Additional observations from a re-analysis of the deposited data

Results flagged for a closer look

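Single libraries lay far from the others of their group in 5 of 100 groups of 4 Trap libraries examined (Dixon's ratio above its 95% critical value), a rate that chance alone gives in about 1 of 20 groups. They were Itga9 (39.9 FPKM) and Nid2 (42.8 FPKM) in CD146 Trap 2, Itga2 in CD146 Trap 3 (6.37 FPKM), Itgb4 in endothelium Trap 2 (30.2 FPKM) and Lamb1 in mTEC Trap 3 (14.2 FPKM). CD146 Trap 2 is the library with the highest Col1a1 of its population, and endothelium Trap 2 the one with the highest thymic epithelial marker sum.

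In 6 cases, over 4 pairs of populations, a member had every Trap library above both controls in 1 population and below both in endothelium. The log2 Trap differences were apart by 0.63 for Lamc1 (CD140a-positive mesenchyme and endothelium), 0.42 for Nid1 (CD146-positive mesenchyme and endothelium), 0.57 for Itga6 (cTEC and endothelium), 0.67 for Itga6 (mTEC and endothelium), 0.76 for Lama3 (mTEC and endothelium) and 0.60 for Lamc1 (mTEC and endothelium). These pairwise differences were not tested, and the cases were picked for lying on opposite sides. The share of all genes with such opposite sides was not computed.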

How the results depend on the processing

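Most member calls in the population comparisons were kept. However, 29 results lost their call when some single library was left out, and 26 did so in some other alternative. The 209 member results past the threshold were followed, and those not past it were not followed singly. Other processing gave 1468 values on the same side and still past the threshold. It gave 49 on the same side but no longer past it, and 1 reversed. The reversed value was Lama1 in endothelium, 0.0058 under quantile normalization against -0.36. Leaving out 1 library gave 6195 values still past the threshold and 71 no longer past it. Quantile normalization shifted the median of all genes by -0.33 in mTEC, 0.11 in CD140a-positive mesenchyme, 0.13 in endothelium and 0.28 for cTEC against mTEC, and TPM by 0.12 in CD146-positive mesenchyme and -0.12 in mTEC. Under quantile normalization 5753 genes rather than 2868 were lower in mTEC, and between cTEC and mTEC 7 members rather than 11 were lower in cTEC, with 4003 and 3080 of all genes higher and lower rather than 2116 and 4652.

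All genes called for Trap depended strongly on the method, while 0 members passed in any of these alternatives apart from the libraries left out. CD140a-positive mesenchyme gave 4 without the filter and 1 with variance weights (0 as reported); CD146-positive mesenchyme 13 without the filter, 7 with TPM, 6 with variance weights and 0 from its own libraries (3); cTEC 2 with pseudocount 0.1, 3 with TPM, 8 with variance weights and 0 from its own (1); mTEC 9 with pseudocount 0.1, 199 without the filter and 0 from its own (57). Endothelium gave 176 with quantile normalization, 13 with variance weights and 0 from its own libraries (286); the average 42 with TPM, 45 with upper-quartile scaling and 34 with variance weights (70); the endothelial difference 28 with quantile normalization and 5 with variance weights (46). Leaving out 1 library gave 0 to 9 in CD140a-positive mesenchyme, 2 to 19 in CD146-positive mesenchyme, 1 to 3 in cTEC, 30 to 149 in mTEC, 89 (without control 1) to 468 (without control 2) in endothelium, 26 to 90 in the average and 31 to 223 in the endothelial difference, with 0 to 1 members higher and 0 to 2 lower in endothelium and 0 to 1 higher in mTEC.

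Members without overlap between treatments also moved. Upper-quartile scaling gave 6 above in CD140a-positive mesenchyme, 6 above in cTEC, 0 below in mTEC, and 2 above and 5 below in endothelium; TPM gave 1 below in mTEC and 3 above in endothelium, and quantile normalization 3 above in endothelium. Leaving out 1 library gave 2 to 5 above and 2 to 4 below in CD140a-positive mesenchyme, 2 to 7 and 0 to 3 in CD146-positive mesenchyme, 2 to 5 and 0 to 2 in cTEC, 4 to 7 and 2 to 6 in mTEC, and 1 to 7 above and 9 to 11 below in endothelium, where 7 came without control 1. Leaving out a library can only keep or raise such a count, since fewer libraries must meet the rule. The share of all genes was not computed under these scalings or without a library, so these counts have no background beside them. The causes were not tested.

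The labels do not say that a replicate number marks a shared animal or batch, and the numbers were not taken as pairing the libraries: over 50 same-numbered pairs across populations, correlations of deviations ran from -0.05 to 0.10, 1 of them over 0.1. When each Trap library was set against the 4 Trap libraries of another population, its best match had its own number in 47 of 80 comparisons, more than the 1 in 4 of a random match, a hint of shared numbers from the data and not from the design. The replicate block gave 270 genes in endothelium (286 without it), 59 in mTEC (57), 40 in the endothelial difference (46) and 27 in the average (70), and changed no member's call. Depth is unknown, so differences of members below 1 FPKM cannot be weighed against counting error.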
